A study of Mus musculus with 4 samples.

Results

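The 10 genes described here encode receptors that guide the movement of group 2 innate lymphoid cells (ILC2s): the chemokine receptors Ccr2, Ccr4, Ccr6, Ccr8, Ccr9, Cxcr4 and Cxcr6, the sphingosine phosphate receptors S1pr1 and S1pr4, and the oxysterol receptor Gpr183. They were chosen by name and not by a cut on their values, but with earlier results of these data known. All 10 were among the 17187 genes of the deposited table. ILC2s live in barrier tissues such as the lung, lack antigen receptors and are a main source of type 2 cytokines. Here they were sorted from the lungs of BALB/c mice and kept in culture for 18 hours with anti-CD226 antibody (CD226 is a costimulatory receptor; 5 µg/mL, 2 libraries), or with an isotype control antibody (2 libraries). Both groups were cultured and neither was left without an antibody. The labels do not give the genotype beyond the strain or the age of the mice, and the wording of the dose does not settle whether it also holds for the isotype antibody. The design text of the series describes wild type mice that were themselves treated, and the table calls the controls PBS; the groups follow the labels of the samples. The sources do not tell whether replicates are separate mice or cultures, so the spread that p-values rest on may be technical.

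Chemokine receptors sit in the cell membrane, couple mainly to inhibitory G proteins and steer a cell along a gradient of a small secreted protein. S1pr1 does the same for sphingosine phosphate, a lipid that is abundant in blood and lymph and scarce in tissue, and lets lymphocytes leave tissues. Gpr183, also called EBI2, senses dihydroxylated oxysterols. In the lung, such receptors take part in where ILC2s settle and whether they leave for the blood.

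The estimated depth was between 12433711 and 17847297 reads per library, and the 13010 genes whose mean reached 10 were tested. Values are normalised read counts as deposited, and a level is given per kilobase (kb) of the longest annotated transcript wherever genes are set beside each other. The ILC2 genes Gata3 and Il1rl1 were high in every library, between 13811 and 17310 and between 8220 and 9037 normalised reads. Of the 18 ILC2 genes listed, 17 reached the filter. Thy1 was low among these, between 76.0 and 194, and Tcf7, between 7.72 and 10.3, did not reach it. Markers of other cells ranged from near 0 to levels well above the filter. Csf1r, Adgre1, Ly6c2 and Zbtb46 were at most 2.62, 7.73, 21.2 and 22.04 in any library, but Tpsab1, a mast cell tryptase, was between 1299 and 2047. Pecam1, an adhesion molecule listed for endothelium, was between 620 and 726, and Epcam, one listed for epithelium, between 184 and 215. The other endothelial genes listed, Cdh5, Vwf and Kdr, were not analysed here, so Pecam1 stands alone for endothelium. Cd79b of B cells was between 166 and 210, H2-Ab1 of antigen-presenting cells between 184 and 246, and Gzma of NK cells between 106 and 290. Cd3e and Cd3g, which encode parts of the T cell receptor complex, were between 51.5 and 79.4 and between 215 and 325. Some other genes of these lists were low. Tpsb2, Ms4a2 and Fcer1a of mast cells and basophils were at most 15.5, 6.61 and 20.9. Sftpc and Scgb1a1 of epithelium were at most 22.4 and 13.1. Cd22 of B cells, Prf1 of NK cells and H2-Aa of antigen-presenting cells were at most 4.64, 23.1 and 23.2. Cd3d and Trac of T cells were at most 5.53 and 4.64. The lists also held Kit, Trbc1 and Trbc2, with lowest values of 768, 602 and 1340. The markers Cd4, Cd8a, Mrc1, Siglecf, Flt3, Ncr1 and Cd79a were not analysed here. In bulk samples, fewer cells of a type and less RNA per cell cannot be told apart.

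The receptors differed widely in level. Cxcr6, the receptor for the membrane-bound chemokine CXCL16, was far ahead of the others, at 10089 ± 1312 normalised reads per kb in anti-CD226 and 11290 ± 344 in isotype libraries (SD, n = 2 each). That put it in place 38 of the 16762 genes with an annotated length, and it alone held between 0.127% and 0.159% of a library's signal. Next came Ccr2, the receptor for the monocyte chemoattractant CCL2, with 1505 ± 324 per kb in anti-CD226 and 1434 ± 70.8 in isotype libraries. Ccr8, the receptor for CCL1, had 1180.0 ± 25.2 per kb in anti-CD226 and 1015 ± 37.6 in isotype libraries. The levels per kb of these 3 receptors did not overlap with one another over the 4 libraries.

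**Figure D1:**
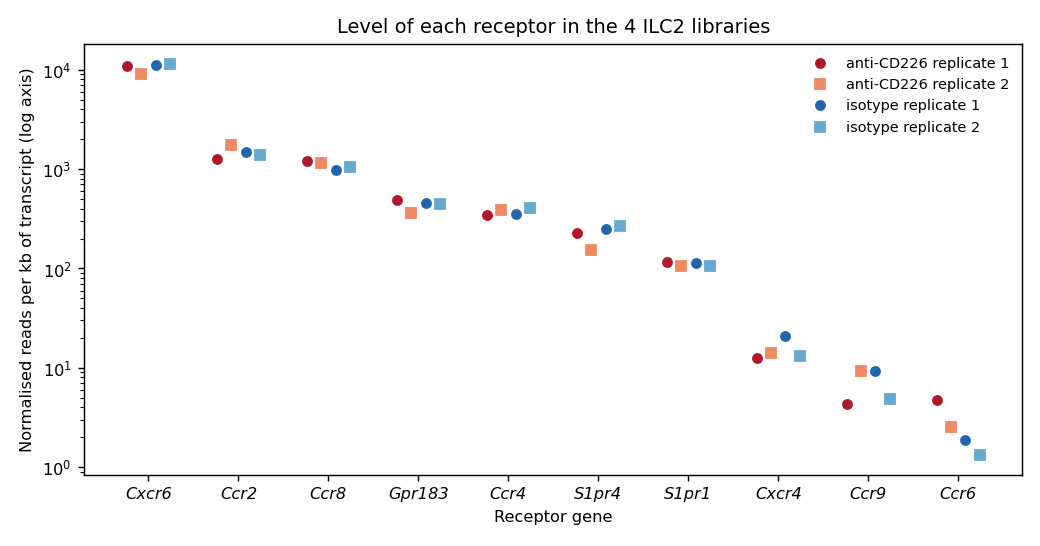
Normalised reads per kb of the longest annotated transcript (vertical axis, log scale) for the 10 receptor genes, ordered by their mean over the 4 libraries; each point is 1 library. Cxcr6 lies above 9161 per kb in every library, while Cxcr4, Ccr9 and Ccr6 lie at or below 20.8 per kb.

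A middle set followed. Gpr183 had 425 ± 93.4 per kb in anti-CD226 and 452 ± 3.27 in isotype libraries. Ccr4, which binds CCL17 and CCL22 and marks type 2 lymphocytes, had 366 ± 25.7 per kb in anti-CD226 and 380.5 ± 38.9 in isotype libraries, and its range over the 4 libraries overlapped with that of Gpr183. The sphingosine phosphate receptors stood lower. S1pr4, a receptor found mainly on blood and lymphoid cells, had 191 ± 52.6 per kb in anti-CD226 and 257 ± 12.8 in isotype libraries, and S1pr1, the egress receptor, had 110.4 ± 7.78 in anti-CD226 and 109.9 ± 6.19 in isotype libraries. The mean level of S1pr4 was 2.04 times that of S1pr1, and their ranges did not overlap.

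The last 3 rested on few reads. Cxcr4 and Ccr9 had an estimated 22 to 34 and 22 to 44 reads per library, above the floor of 3 reads, and Ccr6 was at or near that floor. Cxcr4, the receptor for CXCL12, had 13.3 ± 1.06 per kb in anti-CD226 and 17.04 ± 5.34 in isotype libraries. Ccr9, the receptor for CCL25 that brings lymphocytes to the gut, had 6.84 ± 3.52 in anti-CD226 and 7.13 ± 3.15 in isotype libraries. Ccr6, the receptor for CCL20, rested on an estimated 8 and 4 reads in anti-CD226 replicates 1 and 2 and on 3 and 3 reads in isotype replicates 1 and 2. Its ranges per kb overlapped with those of Ccr9. Exact Poisson intervals (95%) for Ccr6 ran from 3.56 to 16.2 and from 1.20 to 11.3 normalised reads in the anti-CD226 libraries and from 0.684 to 9.69 and from 0.478 to 6.77 in the isotype libraries, all overlapping. They cover counting error only. Ccr6 was the single receptor whose mean fell below the filter, so it was not tested, and 9 of the 10 were.

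Of the 10 genes, 5 lie on chromosome 9. Ccr9, Cxcr6 and Ccr2 lie in the receptor cluster there (from 123678439 to 124113557 between Ccr9 and Ccr2, GRCm38), where 7 receptor genes were read. Neighbours in this cluster differed widely in level. Ccr9 ends 22145 bases before the start of Cxcr6 and both are on the plus strand, yet the mean level of Cxcr6 was 1530 times that of Ccr9 per kb. Xcr1 and Ccr1, the next receptors along the chromosome, had 121 and 192 per kb on average over the 4 libraries. Ccr1l1 and Ccr3 had 3.37 and 11.8 per kb. The level of Ccr2, at 1469 per kb, was 124 times that of its neighbour Ccr3.

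**Figure D2:**
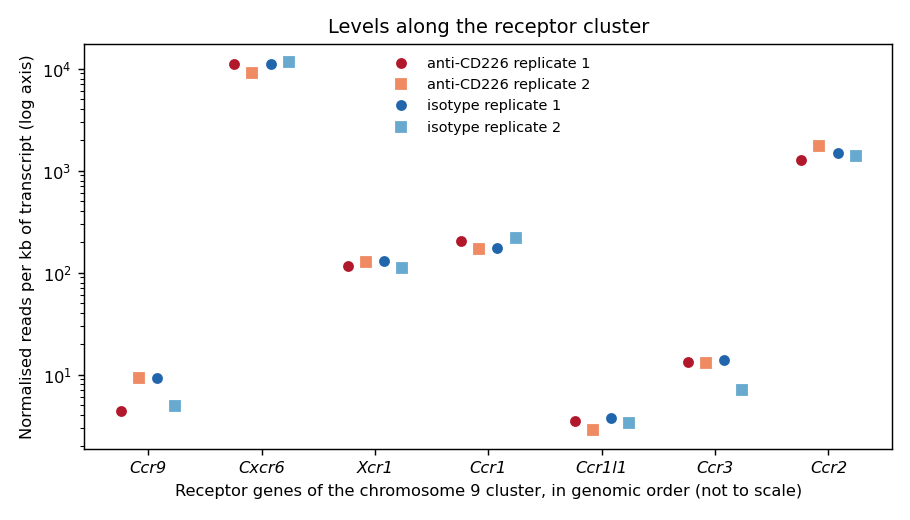
Normalised reads per kb of the longest annotated transcript (vertical axis, log scale) for the 7 receptor genes of the chromosome 9 cluster from Ccr9 to Ccr2 in genomic order, not to scale; each point is 1 library. Cxcr6 and Ccr2 stand above their neighbours Ccr9, Xcr1 and Ccr3 in all 4 libraries.

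The sequences upstream of Cxcr6 and Ccr9 are shown because these neighbours mark the top and nearly the bottom of the range. Each is the stretch from base 250 to base 51 before the RefSeq start (GRCm38.p6, plus strand), chr9:123806227-123806426 for Cxcr6 and chr9:123766961-123767160 for Ccr9, written 5′ to 3′. Capitals mark a match to CACCC, a core letter string of Krüppel-like factors, on either strand.
Cxcr6: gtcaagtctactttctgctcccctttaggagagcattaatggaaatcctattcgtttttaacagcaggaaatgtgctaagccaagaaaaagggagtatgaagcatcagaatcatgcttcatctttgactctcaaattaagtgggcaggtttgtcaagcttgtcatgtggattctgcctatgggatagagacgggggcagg
Ccr9: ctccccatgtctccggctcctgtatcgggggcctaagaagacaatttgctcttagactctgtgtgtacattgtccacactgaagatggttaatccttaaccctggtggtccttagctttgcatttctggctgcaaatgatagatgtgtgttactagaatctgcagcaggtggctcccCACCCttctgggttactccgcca

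RefSeq windows of 250 bases were found for 9 of the 10 genes (10 windows). CACCC was present in 5 of these 10 windows, against 52.01% of all 32851 promoter windows. GATAA, a core string of GATA factors, was present in 4 of the 10, against 22.6% of all windows. Both strands were read, matches of the 2 strings can share a base, and neither was found in the window of Cxcr6. A match is a description of letters and was not tested as a binding site.

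No receptor passed the test between the anti-CD226 and the isotype libraries. Of the 9 receptors tested, 0 passed an adjusted p of 0.05 (limma with Benjamini-Hochberg adjustment over all 13010 genes), against 0.0% of all genes, and 0 had an unadjusted p below 0.05, against 2.37% of all genes (308 genes). Adjusted p-values of the 9 ran from 0.982 to 0.997. By their means, 3 were higher and 6 lower in anti-CD226, with a median log2 fold change of -0.08 beside 0.0066 over all genes tested. The groups did not overlap in 3 of the 9 (Ccr8, Cxcr6 and S1pr4), against 26.8% of all genes. Of these 3, 1 was higher and 2 were lower, against 13.8% and 13.0% of all genes. With 2 libraries a group, the smallest p a two-sided exact permutation test allows is 0.33, which was the smallest found.

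**Figure D3:**
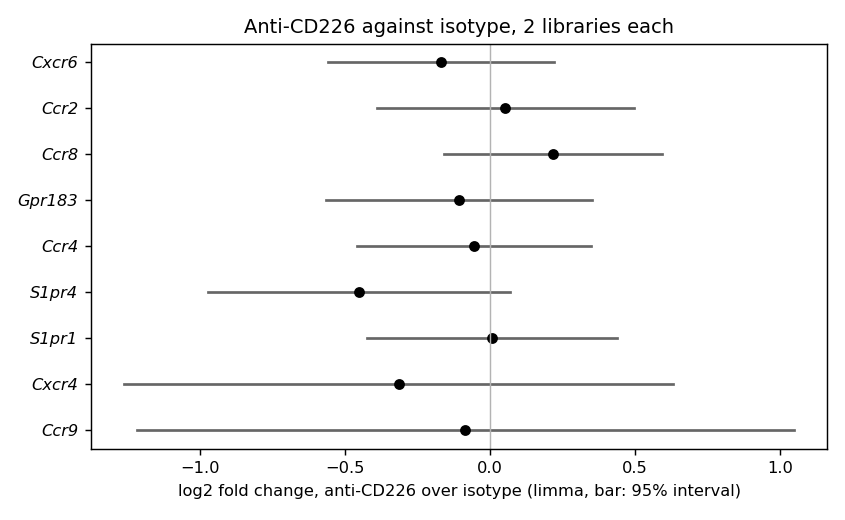
The log2 fold change of anti-CD226 over isotype (horizontal axis) for the 9 receptors tested; points are limma estimates and bars their 95% intervals, from 2 libraries a group. Every interval includes 0, and the intervals are widest for Cxcr4 and Ccr9.

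Among the chemokine receptors with many reads, Cxcr6 stood at 21008 and 17471 normalised reads in anti-CD226 replicates 1 and 2, against 21067 and 21994 in isotype replicates 1 and 2. The groups did not overlap, but anti-CD226 replicate 1 was close to the lower isotype library, and replicate 2 lay well below the other 3. The log2 fold change was -0.17 ± 0.17 (SE) (limma, adjusted p = 0.98), and its 95% interval reached from a fold of 0.679 to 1.17.

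Ccr8 was the 1 receptor among the 9 tested whose anti-CD226 libraries both stood above both isotype libraries. It had 1407 and 1366 normalised reads in anti-CD226 libraries, against 1161 and 1224 in isotype libraries. Within each group the 2 libraries were close, so the means, 1387 ± 29.6 in anti-CD226 and 1193 ± 44.2 in isotype libraries (SD, n = 2 each), lie further apart than the SDs. The log2 fold change of 0.22 ± 0.16 (SE) did not pass (limma, adjusted p = 0.98), with a standard error for which limma also uses the variance of other genes. Its 95% interval reached from a fold of 0.897 to 1.51.

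Ccr2 overlapped between the groups, at 7304 and 9931 normalised reads in anti-CD226 libraries, against 8501 and 7927 in isotype libraries. The 2 anti-CD226 libraries held its lowest and its highest value. Ccr4 stood at 975 and 1077 in anti-CD226 libraries, against 990.1 and 1144 in isotype libraries, which is also an overlap. Their log2 fold changes were 0.053 and -0.055 with standard errors of 0.19 and 0.17 (limma, adjusted p = 0.99 for each). A change of Ccr4 to more than 1.27-fold or to less than 0.727-fold, or of Ccr2 to more than 1.41-fold or to less than 0.764-fold, lies outside the 95% intervals.

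The receptors with few reads could not be resolved. Ccr9 had 22.7 and 48.5 normalised reads in anti-CD226 libraries, against 48.6 and 25.5 in isotype libraries, so each group held a low and a high value. Its interval reached from a fold of 0.431 to 2.07. Cxcr4 had 22.7 and 25.3 in anti-CD226 libraries, against 37.6 and 23.95 in isotype libraries, with isotype replicate 1 apart from the other 3 and an interval from 0.418 to 1.55. Of the 10260 annotated exon bases of Ccr9, 2201 lie also in exons of other genes, so some of its reads may be uncertain; the exons of the other 9 receptors share 0 bases with another gene. Ccr6, not tested, stood at 8.24 and 4.41 in anti-CD226 libraries, against 3.32 and 2.32 in isotype libraries.

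Of the lipid receptors, S1pr4 had the smallest unadjusted p of the 9 receptors. It stood at 546 and 368 normalised reads in anti-CD226 libraries, against 591 and 634 in isotype libraries. Both anti-CD226 values were the lower ones, and replicate 2 was well below the other 3 libraries. The means were 457 ± 126 in anti-CD226 and 613 ± 30.5 in isotype libraries (SD, n = 2 each), and the log2 fold change of -0.45 ± 0.22 (SE) did not pass (limma, unadjusted p = 0.081, adjusted p = 0.98). A single library decided the size: without anti-CD226 replicate 1 the log2 fold change was -0.73 (limma, adjusted p = 0.0094, in a fit that calls 1633 genes and assumes that the lone library varies like the isotype pair). Without anti-CD226 replicate 2 it was -0.17 (limma, unadjusted p = 0.39) and was not called.

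S1pr1 had 353 and 320 normalised reads in anti-CD226 libraries, against 348 and 321 in isotype libraries. The groups covered the same range, with a log2 difference of 0.0063 ± 0.19 (SE), whose sign turned with scaling to the same total or upper quartile. Its 95% interval reached from a fold of 0.745 to 1.35. Gpr183 had 1338 and 979 in anti-CD226 libraries, against 1239 and 1226 in isotype libraries, so the anti-CD226 libraries lay on both sides of the isotype pair. The log2 fold change of Gpr183 was -0.11 ± 0.20 (SE) (limma, adjusted p = 0.98).

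Anti-CD226 replicate 2 was often the library at an end of the range, over all genes tested and for several of these receptors. It held the lowest value of 4 of the 9 receptors (Cxcr6, Gpr183, S1pr1 and S1pr4) and the highest of 1 (Ccr2), against 37.2% and 37.0% of all genes tested. In the same library short transcripts were low and long ones high: the tenth of genes with the shortest transcripts had a median log2 deviation of -0.39 from the mean of the 4 libraries, and the tenth with the longest 0.32. In the other 3 libraries these medians were between 0.04 and 0.22 and between -0.19 and 0.0045. The transcripts of Cxcr6, S1pr4 and Ccr2 are 1907, 2386 and 5728 bases long. After the relation with length had been taken out of each library, the deviation of Ccr2 in anti-CD226 replicate 2 was 0.04, against 0.25 before. That of Cxcr6 was -0.08 against -0.22, and that of S1pr4 -0.44 against -0.51. Ccr8, at 1175 bases the shortest of the transcripts, had a log2 fold change of 0.37 after the removal (limma, unadjusted p = 0.038, adjusted p = 0.99). Its deviations in anti-CD226 replicates 1 and 2 were 0.130 and 0.087 before the removal and 0.0082 and 0.361 after it. The 2 anti-CD226 libraries thus lay further apart for Ccr8 after the removal, with replicate 2 the higher.

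**Figure D4:**
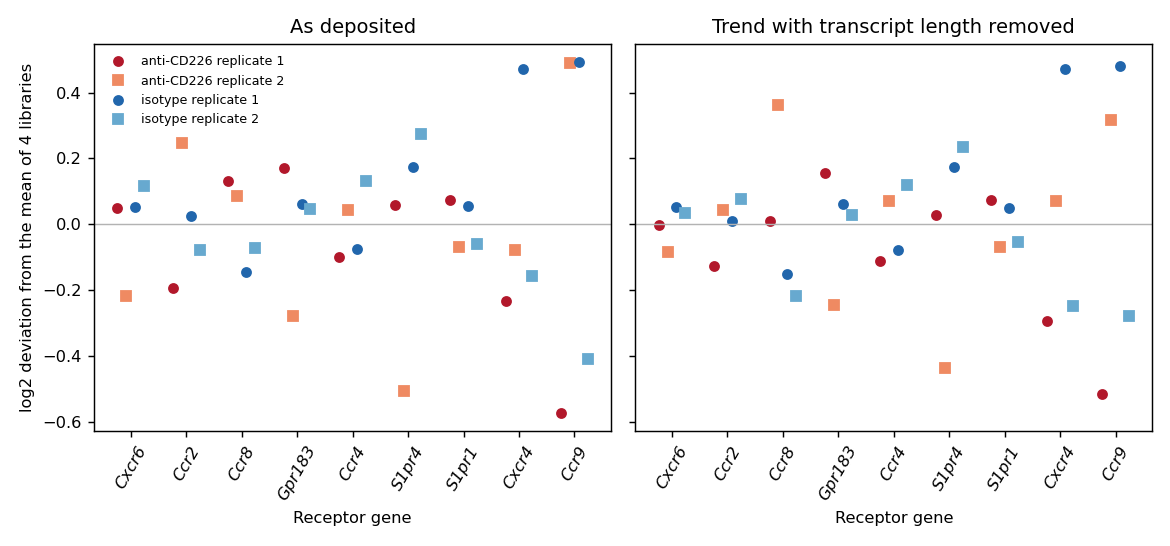
The log2 deviation of each library from the mean of the 4 libraries (vertical axis) for the 9 receptors tested, as deposited (left) and after the relation with transcript length was taken out (right); each point is 1 library. Anti-CD226 replicate 2 is the lowest point for S1pr4 in both panels, at -0.51 and -0.44.

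Marker levels also differed between the libraries. The 9 genes analysed of the list of 16 macrophage and monocyte markers summed to 136 and 998 normalised reads in anti-CD226 replicates 1 and 2, against 89.8 and 72.6 in isotype libraries. Most of the 998 came from Chil3, a chitinase-like protein of lung macrophages, with 784. Several genes of this list were higher in both anti-CD226 libraries, not in replicate 2 alone. Of the 5 tested, 2 (Cd68 and Lyz2) were higher with groups that did not overlap, against 13.8% of all genes tested. An unadjusted p below 0.05 (limma) was found for 3 of the 5 (Cd68, Lyz2 and Chil3), against 2.37% of all genes tested. Cd68, a lysosomal protein of macrophages, had 55.6 and 88.2 in anti-CD226 libraries, against 35.4 and 38.6 in isotype libraries (limma, unadjusted p = 0.027). Lyz2, a lysozyme, had 8.24 and 51.8 in anti-CD226 libraries, against 3.32 and 0.773 in isotype libraries. Itgam had 19.6 and 18.7 in anti-CD226 libraries, against 1.11 and 0 in isotype libraries, and Mpeg1 had 4.12 and 16.5, against 0 and 0 in isotype libraries. Itgam and Mpeg1 were below the filter and not tested, and the 4.12 of Mpeg1 is near the floor of 3 reads. Itgax, an integrin of dendritic cells and macrophages, had 14.4 and 46.3 in anti-CD226 libraries, against 1.11 and 0 in isotype libraries. Lyz2, Itgax and Chil3 had isotype means of 2.04, 0.553 and 9.95, below the filter of 10. They were tested only because of their anti-CD226 values, so their p-values are no support for a rise. Itgax is from the dendritic cell list, where 5 genes were tested, 2 higher and 3 lower. None of the genes tested in these lists passed over all genes (limma, adjusted p). Csf1r, Adgre1, Ly6c2, Apoe and Chil3 of the macrophage and monocyte list overlapped between the groups. The 9 genes analysed of 10 mast cell and basophil markers summed to 2333 and 3500 in anti-CD226 libraries, against 2748 and 3027 in isotype libraries, mostly from Tpsab1 and Kit. Of the 7 tested, 3 had an unadjusted p below 0.05, against 2.37% of all genes tested, and 0 passed (limma). Cpa3 was lower, at 37.1 and 63.9 in anti-CD226 libraries, against 84.0 and 100 in isotype libraries. Mcpt8 was also lower, at 15.4 and 18.7 in anti-CD226 libraries, against 34.3 and 34.8 in isotype libraries. Gata2 was higher, at 26.8 and 20.9 in anti-CD226 libraries, against 8.84 and 10.04 in isotype libraries. Its isotype mean of 9.44 was below the filter, so its p-value is no support for a rise. The 8 genes analysed of 12 T cell markers summed to 3571 and 2426 in anti-CD226 libraries, against 3432 and 3937 in isotype libraries, mostly from Trbc1 and Trbc2. None of these 8 was at 0 in any library. However, Cd3d was between 1.10 and 5.53 and Trac between 2.06 and 4.64, near the floor of 3 reads. Whether transcript length or other cells play a part in the values of S1pr4, Cxcr6 or Ccr2 was not tested.

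The genes around the receptors were read from 7 lists with 111 genes, of which 89 were analysed and 75 tested. None of the 75 passed (limma, adjusted p), 41 were higher and 34 lower, the median log2 fold change was 0.02, and 3 had an unadjusted p below 0.05. Few ligands of the receptors could be followed. Of 11 listed ligands 3 were analysed and 1 tested: Ccl25, the ligand of Ccr9, had 81.2 ± 9.93 normalised reads in anti-CD226 and 64.9 ± 23.0 in isotype libraries. Cxcl16, the ligand of Cxcr6, had 10.03 ± 3.28 in anti-CD226 and 8.62 ± 3.44 in isotype libraries. Ccl2, a ligand of Ccr2, was at 0 and 2.20 in anti-CD226 libraries and at 16.6 and 0 in isotype libraries.

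Other chemokine receptors were present beside the 10. Of 18 listed, 11 were analysed and 6 tested, with 2 higher, 4 lower and 0 called. Ccr7, which guides cells to lymph nodes, had 888 ± 23.5 normalised reads in anti-CD226 and 1026 ± 76.9 in isotype libraries. Ccr1, a receptor for inflammatory chemokines, had 529 ± 65.6 in anti-CD226 and 559 ± 90.8 in isotype libraries. Per kb, the mean level of Cxcr6 was 22.1 times that of Ccr7, and the mean level of Ccr7 was 69.3 times that of Ccr9. The other lipid attractant receptors had 14 of 17 genes tested, 8 higher, 6 lower and 0 called. Ltb4r1, the leukotriene B4 receptor, had 5865 ± 70.8 in anti-CD226 and 6303 ± 249 in isotype libraries, and Cysltr1, a receptor for cysteinyl leukotrienes, had 4662 ± 149 in anti-CD226 and 4520 ± 155 in isotype libraries. The prostacyclin receptor gene Ptgir had 2385 ± 209 in anti-CD226 and 2448 ± 359 in isotype libraries.

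Enzymes that handle the lipid ligands were tested in small number. Sgpl1 and Sgpp1, which degrade sphingosine phosphate, had 1687 ± 229 and 1127 ± 121 normalised reads in anti-CD226 libraries, against 1423 ± 132 and 1045 ± 72.6 in isotype libraries. Sphk2, one of the kinases that make it, had 486 ± 54.9 in anti-CD226 and 473 ± 64.7 in isotype libraries. All 3 genes tested of this list were higher by their means and none passed. Hsd3b7, which breaks down the oxysterol ligands of Gpr183, had 46.3 and 22.04 in anti-CD226 libraries, against 49.1 and 67.2 in isotype libraries. Its log2 fold change of -0.82 ± 0.42 (SE) did not pass (limma, adjusted p = 0.98), and leaving out 1 library changed it: the value was -1.34 without anti-CD226 replicate 1 (limma, adjusted p = 0.019, in the fit with a lone anti-CD226 library that calls 1633 genes) and -0.31 without anti-CD226 replicate 2 (limma, unadjusted p = 0.41).

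Regulators of receptor transcription and surface level had 15 of 17 genes tested, 4 higher, 11 lower and 0 called. Klf2, the factor that drives S1pr1 transcription in lymphocytes, had 182 and 149 normalised reads in anti-CD226 libraries, against 170 and 158 in isotype libraries, and Cd69, which removes S1pr1 protein from the surface, had 685 and 544 in anti-CD226 libraries, against 639 and 651 in isotype libraries. Both overlapped between the groups; Klf2 and Cd69 were chosen for these sentences after their values were seen. Rgs1, a brake on G protein signalling, had 5209 ± 1576 in anti-CD226 and 5551 ± 379 in isotype libraries. Grk6, a kinase that shuts off receptors, had 3367 ± 220 in anti-CD226 and 3538 ± 362 in isotype libraries. Grk2, another such kinase, had 4410 and 3952 in anti-CD226 libraries, against 2860 and 3341 in isotype libraries. Both anti-CD226 values of Grk2 were above both isotype values, with a log2 fold change of 0.43 ± 0.17 (SE) that did not pass (limma, unadjusted p = 0.034, adjusted p = 0.98).

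Signalling genes below the receptors had 35 of 36 tested, 23 higher, 12 lower and 0 called. Coro1a, Cdc42 and Rap1b, which act on actin and adhesion, were the most abundant by reads, with 26625 ± 3278, 13034 ± 1660 and 12800 ± 1481 in anti-CD226 and 28720 ± 308, 13157 ± 849 and 12965 ± 303 in isotype libraries. Gna12, the alpha subunit of a G protein that acts on the cytoskeleton, had 917 and 721 normalised reads in anti-CD226 libraries, against 276 and 470.3 in isotype libraries. The groups of Gna12 stood apart, with a log2 fold change of 1.17 ± 0.27 (SE) (limma, unadjusted p = 0.0028, adjusted p = 0.98). With a replicate block, which is not read as a pairing here, its adjusted p was 0.041 (limma). The log2 fold change of Gna12 was 0.998 without anti-CD226 replicate 1 and 1.34 without anti-CD226 replicate 2. It was 0.79 without isotype replicate 1 and 1.55 without isotype replicate 2. Each of these fits has a lone library in 1 group. The groups do not overlap, so leaving out 1 library could not turn the sign. Was, which links receptors to actin branching, had 1073 and 754 in anti-CD226 libraries, against 1322 and 1266 in isotype libraries, a log2 fold change of -0.52 ± 0.21 (SE) (limma, unadjusted p = 0.036, adjusted p = 0.98). Was stood at -0.78 without anti-CD226 replicate 1 (limma, adjusted p = 0.0026, in the same fit with 1633 calls) and at -0.27 without anti-CD226 replicate 2 (limma, unadjusted p = 0.13). Gna12, Grk2 and Was were the 3 of the 75 genes with an unadjusted p below 0.05, and their groups did not overlap, which held for 2.34% of all genes tested and for 0 of the 9 receptors.

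**Figure D5:**
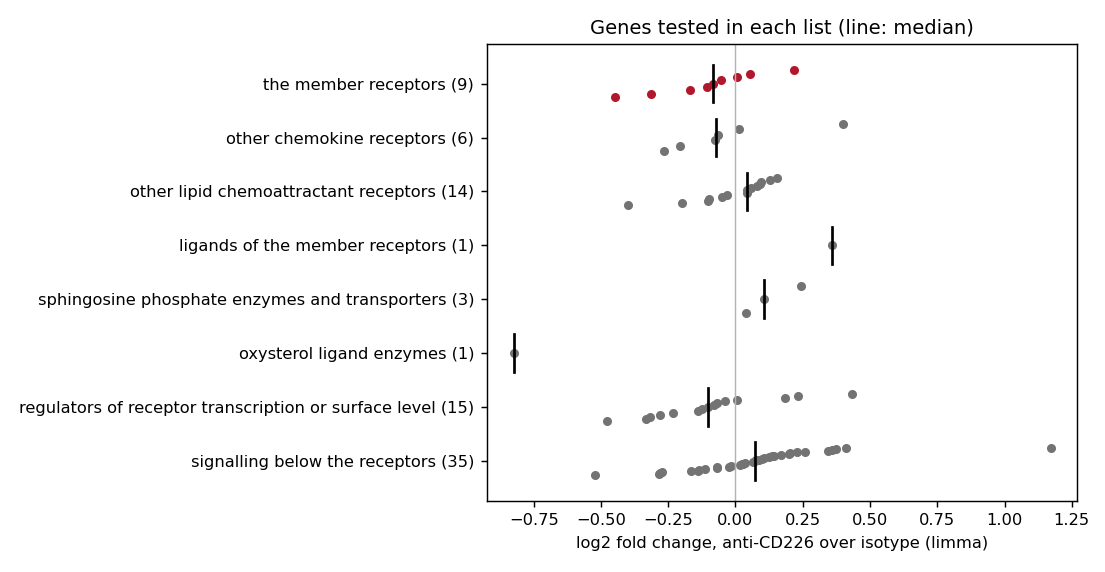
The log2 fold change of anti-CD226 over isotype (horizontal axis) for every gene tested in each list, with the number of genes in brackets; points are genes, the 9 receptors in red, and vertical lines are medians. The receptors have a median of -0.08, and Gna12, at 1.17, lies furthest to the right.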

How the data were processed

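RNA of cultured ILC2s was turned into cDNA with a low-input kit, per the labels' protocols. The submitters' processing notes name mm10 and the tools STAR 2.7.8, Partek 10.0 and DESeq2; no source used here names the gene annotation or how strand was handled. The deposited table holds normalised signal, with 1 value for each gene in each library. Between 73.5% and 75.1% of values from 0.5 to 1000 steps were whole multiples of the value of 1 read (tolerance 0.02), so the signal is taken as estimated reads divided by 1 factor per library, and no count model was run. Of the gene columns, 163 were checked singly against the unit. Depth is the total divided by the value of 1 read, and 3 reads, between 2.32 and 3.32 normalised reads, are the floor for a value of 0. Amplified reads are not independent molecules, so intervals and floors cover counting error only.

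Genes with a mean of 10 or more were tested with limma 3.58.1 in R 4.3.3 on log2(value + 1), with a mean-variance trend, without a replicate block; p-values are two-sided and Benjamini-Hochberg adjusted over all genes. Fold changes are on this scale, which understates changes of genes with few reads. The steps were tested on simulated data with independent noise, no trend with transcript length and changes larger than those fitted for the receptors. That test does not tell how the steps perform on changes as small as these. Lengths and positions come from GENCODE M21 (GRCm38, the assembly that mm10 denotes), with a length for 97.5% of genes. The members and gene lists were chosen with earlier results of these data known. Named were all 10 members; of the other lists, genes with an unadjusted p below 0.05 and groups that do not overlap, the 3 of highest mean, and ligand and lipid enzyme genes that passed the filter; and defining cell markers. Genes given outside this rule (Xcr1, Ccr3, Ccr1l1, Ccl2, Cxcl16, Klf2, Cd69, Thy1, Tcf7, Chil3, Mpeg1, Itgam, Itgax, Cd68, Lyz2, Apoe, Tpsab1, Tpsb2, Ms4a2, Fcer1a, Cpa3, Mcpt8, Gata2, Kit, Pecam1, Epcam, Sftpc, Scgb1a1, Cd79b, Cd22, H2-Ab1, H2-Aa, Gzma, Prf1, Cd3d, Trac, Trbc1 and Trbc2) were chosen after their values were seen. Some genes that the rule names are not reported here. Alternatives covered the pseudocount, filter, 4 scalings, variance prior and trend, length trend, replicate blocks and leaving out each library.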

Additional observations from a re-analysis of the deposited data

How the results depend on the processing

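No receptor was called under 16 of the 17 alternatives to the main test; the exception was S1pr4 without anti-CD226 replicate 1. The count of genes called, 0 as reported, was between 12 (without isotype replicate 1) and 1633 (without anti-CD226 replicate 1) when a library was left out, with between 0 and 1 of the receptors and between 0 and 9 of the other listed genes. It was 20 with a replicate block, with 1 listed gene (Gna12), and 61 with the crossed replicate block, added after seeing the data, with 1 listed gene (Gna12). The labels do not say that a replicate number marks a shared animal or day, and same-numbered libraries deviated in opposite directions (r = -0.24 across 13010 genes, which are not independent), so the block is not read as a pairing. The sign of small fold changes turned. Ccr2 was -0.085 with the length trend removed and between -0.17 and 0.27 with a library left out. S1pr1 was -0.00095 and -0.019 scaled to the same total and upper quartile, and between -0.065 and 0.078 with a library left out. With a library left out, Ccr4 was between -0.16 and 0.049, Ccr9 between -0.62 and 0.45, Cxcr4 between -0.63 and 0.00069, and Gpr183 between -0.33 and 0.12. Ccr8, Cxcr6 and S1pr4 kept their sign under all 17 alternatives. Their groups do not overlap, so leaving out 1 library could not turn the sign. Alternatives that change only the filter, the variance prior or trend, or the replicate block keep the same fold change. For all of these the sign was fixed in advance, which says nothing of how firm it is. With no filter, Ccr6 had a log2 fold change of 0.90 (standard error 0.71; limma, adjusted p = 0.985). The order of the receptors by level was the same with mean transcript lengths, and without length 8 of 10 kept their place, with Ccr9 above Cxcr4. With 2 libraries a group and few reads of Cxcr4, Ccr9 and Ccr6, differences within the intervals given are not detectable.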
